A study of Mus musculus with 12 samples.

Results

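The Hox genes were followed in fibroblasts sorted from normal, inflamed and tumour-associated mouse back skin. Every gene was taken whose symbol on the Affymetrix mouse array is Hoxa, Hoxb, Hoxc or Hoxd followed by a number alone, from probe sets paired with exactly 1 symbol. Where a gene had several such probe sets, the one with the highest mean over the 12 arrays stood for it. This gave 33 Hox genes among 18193 genes measured in the same way: 9 of Hoxa, 9 of Hoxb, 7 of Hoxc and 8 of Hoxd. RefSeq lists 39 mouse Hox genes, of which 6 had no probe set of their own here. Hoxd4 and Hoxb8 were read only by probe sets shared with Hoxd3 and Hoxb7, and the remaining 4 were not analysed here.

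The Hox genes encode homeodomain transcription factors that lie in 4 clusters, Hoxa on chromosome 6, Hoxb on chromosome 11, Hoxc on chromosome 15 and Hoxd on chromosome 2 of the mouse. Genes of low number lie at one end of a cluster and act towards the head, genes of high number lie at the other end and act towards the tail and the limb tips, and genes of 1 number in different clusters are paralogues. Fibroblasts of adult skin keep a pattern of Hox expression that reflects where on the body they lie, which makes these genes a record of positional identity.

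All 3 groups were 7-week-old male mice that carried the PDGFRα-H2B-eGFP reporter allele, in which a green fluorescent histone marks the nuclei of cells expressing the receptor PDGFRα, and GFP-positive cells of the back dermis were sorted. The 4 normal arrays came from wild-type skin and the 4 inflamed arrays from skin of InvEE mice, a strain with an activated MEK1 kinase under the involucrin promoter, which drives it in differentiating epidermis and not in the fibroblasts measured. The 4 tumour-associated arrays came from papilloma-associated skin of InvEE mice, so that both disease groups carry the transgene. The labels do not say whether the 4 samples of a group came from separate mice, and each p-value is therefore set against the spread of the 4 samples, part of which may be technical. In a sorted population, fewer cells of a type and less RNA per cell cannot be told apart.

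All 10 fibroblast markers examined, among them Pdgfra, Col1a1 and Dcn, had group means above the dim limit defined further on in all 3 groups, and their level summed on the linear scale lay between 16.57 and 16.85 (log2) on every array. Pdgfra, whose locus carries the reporter, and Twist2 rose in tumour-associated against normal fibroblasts, by 0.93 ± 0.25 and 1.03 ± 0.27 (adjusted p = 0.035 and 0.029 by limma), and Pdgfrb rose against inflamed ones. Pdgfra and Twist2 were called in 5 and 7 of the 12 fits that left out 1 array, and Pdgfrb was not called with the spike control level as a covariate. Array medians of the deposited values ran from 6.54 to 6.66. Correlations across probe sets within a group ran from 0.892 to 0.987, and normal array 4 and tumour-associated array 4 stood apart, with values no higher than 0.927 and 0.896 against their own groups. The 12 probe sets of the poly-A spike controls also differed between groups: their mean was 7.79 to 8.61 on the inflamed arrays, 9.28 to 12.15 on the normal arrays and 9.87 to 12.37 on the tumour-associated arrays.

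The sequences before the transcript starts of 4 genes are shown. Hoxc4 was the only Hox gene that passed the test in the comparisons below, and Hoxb4, which did not pass, is its paralogue. Hoxd4 is a paralogue of both, and Hoxd3os1 is the antisense transcript of a Hox cluster with the largest difference. RefSeq's promoter table (GRCm38.p6) held 24 entries for 22 Hox genes, 19 of which were among the 33. Each sequence is the 250 bases before the start, read 5′ to 3′ on the gene's own strand, and capitals mark matches to AGGTCA or TATAAA on either strand.
Hoxc4, chr15:103034145-103034394, plus strand: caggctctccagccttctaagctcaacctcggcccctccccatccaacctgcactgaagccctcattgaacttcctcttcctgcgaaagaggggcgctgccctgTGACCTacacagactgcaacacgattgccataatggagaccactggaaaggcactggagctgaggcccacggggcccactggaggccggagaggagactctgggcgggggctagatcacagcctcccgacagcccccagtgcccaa
Hoxb4, chr11:96318017-96318266, plus strand: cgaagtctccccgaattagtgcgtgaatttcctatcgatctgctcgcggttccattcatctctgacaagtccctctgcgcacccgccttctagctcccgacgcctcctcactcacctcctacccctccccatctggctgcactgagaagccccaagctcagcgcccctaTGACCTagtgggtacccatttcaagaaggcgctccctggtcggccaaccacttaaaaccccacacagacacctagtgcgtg
Hoxd4, chr2:74721728-74721977, plus strand: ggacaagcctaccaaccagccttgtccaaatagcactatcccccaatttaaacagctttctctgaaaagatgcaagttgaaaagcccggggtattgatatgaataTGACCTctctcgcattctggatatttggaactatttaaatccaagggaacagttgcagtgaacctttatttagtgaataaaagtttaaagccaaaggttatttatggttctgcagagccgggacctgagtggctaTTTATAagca
Hoxd3os1, chr2:74716131-74716380, minus strand: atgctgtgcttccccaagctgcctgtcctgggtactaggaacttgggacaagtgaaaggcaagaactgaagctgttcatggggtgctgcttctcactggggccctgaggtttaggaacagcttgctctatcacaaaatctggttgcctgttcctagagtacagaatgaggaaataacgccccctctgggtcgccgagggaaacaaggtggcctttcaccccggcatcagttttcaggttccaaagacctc
AGGTCA is the core sequence bound by retinoic acid receptors and other nuclear receptors, and retinoic acid is a classical regulator of Hox genes. The Hoxc4 window lies inside the span RefSeq gives that gene, chr15:103018097-103036856, before the start of one of its transcripts, while the other windows adjoin the gene's outer end. Read as TGACCT on the gene's strand, the sequence stood 146 to 141 bases before this start of Hoxc4, 81 to 76 bases before that of Hoxb4 and 145 to 140 bases before that of Hoxd4. TATAAA, the core of the TATA box, was matched as TTTATA 10 to 5 bases before the start of Hoxd4, and neither was found in the Hoxd3os1 window. AGGTCA was present in 6 of the 24 Hox windows (Hoxb4, Hoxc4, Hoxd3, Hoxd4, Hoxd8 and Hoxd10) and in 14% of all 32851 windows of the same length. TATAAA was present in 4 of 24 against 12.4%. TAATTA, a homeodomain core sequence, was present in 2 of 24 against 4.84%, both of them entries of Hoxd11. TGATNNAT, a joint Pbx and Hox sequence, was present in 4 of 24 against 7.68%. A match is a description of these letters and not a binding site.

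Most Hox genes were detected, as were most of all genes, and the set of detected Hox genes was much the same in the 3 groups. A gene was counted as detected where its group mean lay above 6.16 on the log2 scale, the value below which the lowest 40% of all probe-set means lay. Of the 33 Hox genes, 23 passed this dim limit in normal fibroblasts, 21 did in the inflamed group and 21 in the tumour-associated group. There were 20 that passed in every group and 10 that passed in none. By the mean over 12 arrays, 22 of the 33 passed, against 70.8% of all genes. Among the genes measured, which leave out those with no probe set of their own, the Hoxc cluster was the most fully detected. Above the limit in every group were 6 of its 7 measured genes, all but Hoxc13, which is known for its part in hair and nail keratin expression. Hoxa had 5 of 9 in every group, Hoxb 6 of 9 and Hoxd 3 of 8. The 10 genes below the limit in all groups were Hoxa2, Hoxa4, Hoxa11, Hoxa13, Hoxb1, Hoxb7, Hoxc13, Hoxd1, Hoxd10 and Hoxd11. They include Hoxa2 and Hoxb1, known for patterning the hindbrain, and Hoxa13, known for patterning the digits and the genital tubercle. The genes whose side of the limit differed between groups were Hoxb6, Hoxd3 and Hoxd13. Of probe sets for chemosensory receptors, which fibroblasts are not known to use, 6 of 78 lay above the limit. Under their 99th percentile as a stricter limit, 6.94, 14 genes passed in the normal group, 17 in the inflamed group and 14 in the tumour-associated group.

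**Figure D1:**
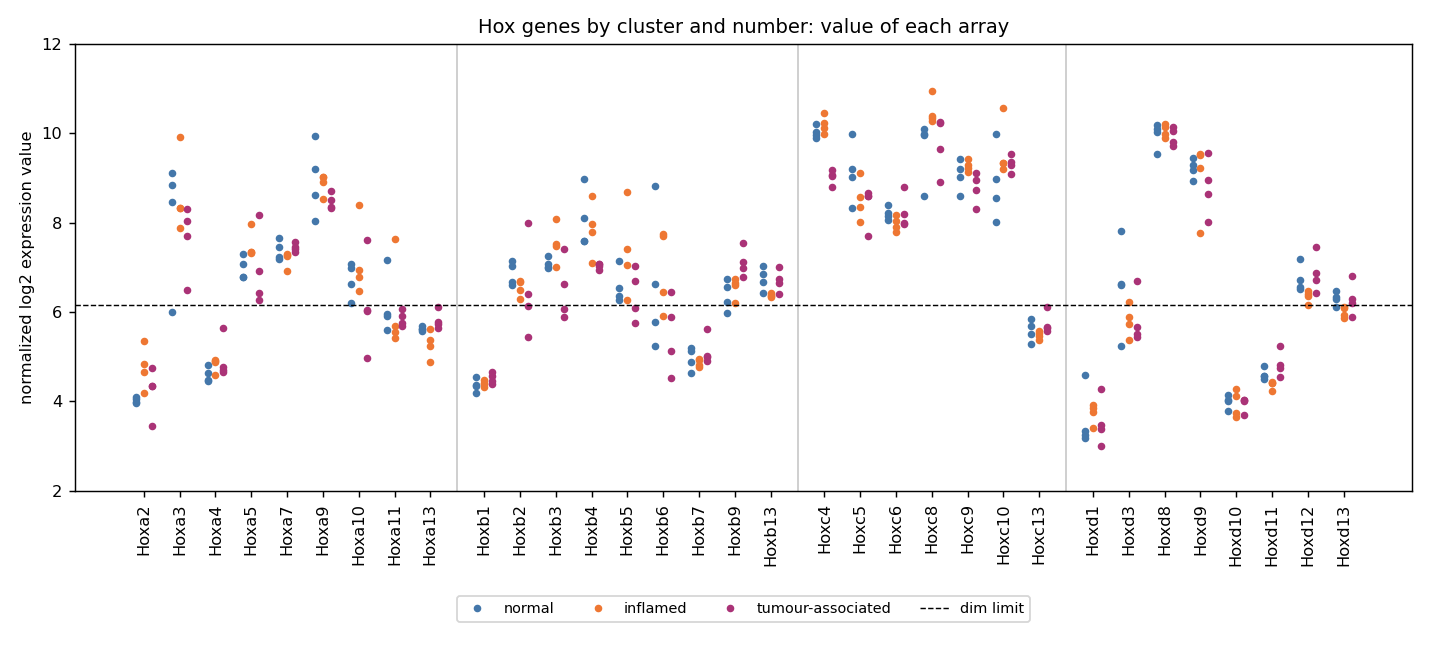
Normalized log2 expression value (vertical axis) of each of the 33 Hox genes (horizontal axis, by cluster and number) on each array, 1 point per array, in normal, inflamed and tumour-associated fibroblasts; the dashed line is the dim limit of 6.16. The points of the 3 groups lie on top of each other for most genes, and the 4 tumour-associated points of Hoxc4 lie below its other 8.

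By number, the genes detected in every group ran from Hoxb2 to Hoxb13, with gaps. No measured gene of number 1 (Hoxb1 and Hoxd1) or 11 (Hoxa11 and Hoxd11) passed in any group. Above number 10, only Hoxb13 and Hoxd12 passed in every group. Their group means lay between 6.34 and 6.86, all below the stricter limit of 6.94. Of the 7 genes numbered 1 to 3, 3 passed the limit in every group, of the 12 numbered 4 to 8, 9 did, and of the 14 numbered 9 to 13, 8 did. In Hoxc the detected genes ran without a gap among those measured, from Hoxc4 to Hoxc10. Hoxc4 had means of 10.02 ± 0.14, 10.20 ± 0.20 and 9.03 ± 0.16 (SD, n = 4) in normal, inflamed and tumour-associated fibroblasts. Hoxc8, which acts in the thoracic region, had 9.66 ± 0.71, 10.49 ± 0.31 and 9.76 ± 0.63 in the same order, and Hoxc9 had 9.06 ± 0.34, 9.27 ± 0.13 and 8.77 ± 0.35. Hoxc10, which acts in the lumbar region and the hindlimb, had 8.88 ± 0.83, 9.61 ± 0.64 and 9.32 ± 0.19. In Hoxd, the pair Hoxd8 and Hoxd9 passed the limit on every array, with normal means of 9.96 ± 0.29 and 9.21 ± 0.21, whereas Hoxd10 and Hoxd11 passed it on none; their normal means were 3.99 ± 0.14 and 4.60 ± 0.13. Levels of different probe sets depend on the probes as well as on the RNA, so these values were not ranked against each other.

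In inflamed fibroblasts, no Hox gene passed the test against normal fibroblasts. The test was a limma linear model fitted to all 18193 genes, with Benjamini-Hochberg adjustment over all of them and calls at an adjusted p under 0.05. It called 0 of 33 Hox genes, against 0.533% of all genes (0.258% higher and 0.275% lower), a background so low that a count of 0 among 33 genes says little. An unadjusted p under 0.05 was found for 3 of 33 Hox genes (Hoxa2, Hoxb13 and Hoxc8), against 15.6% of all genes. The median log2 difference was -0.05 over the Hox genes and -0.09 over all genes. It was of the opposite sign, 0.10, over the 23 Hox genes above the dim limit in at least 1 of these groups, and -0.06 over all genes above it. Hoxd3 and Hoxd13 entered this set through the normal group alone, so the median depends in part on the filter. Groups did not overlap for 6 Hox genes, against 15.3% of all genes: Hoxa2, Hoxa5 and Hoxc8 had higher inflamed values, and Hoxd11, Hoxd12 and Hoxd13 lower ones. The largest of these differences was that of Hoxc8, 0.83 ± 0.37 (SE; adjusted p = 0.304 by limma), with inflamed values of 10.39, 10.28, 10.94 and 10.35 against normal values of 10.09, 9.95, 9.99 and 8.59. Normal array 4 lay far below the other 3 normal arrays of Hoxc8, which lay between 9.95 and 10.09. Over all genes, the number called in this comparison, 97, ranged from 0 to 251 when 1 array was left out, and no Hox gene was called in any of those fits.

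In tumour-associated fibroblasts, Hoxc4 was about 2-fold lower than in both other groups, and it was the only Hox gene that passed the test in either comparison. Hoxc4, a gene of the neck and upper trunk, had normal values of 9.95, 10.21, 9.89 and 10.03 on arrays 1 to 4. The inflamed values were 10.22, 10.13, 10.45 and 9.97. The tumour-associated values were 9.07, 9.05, 9.19 and 8.80. Every tumour-associated array thus lay below every array of the other groups, while the normal and inflamed values overlapped. Against normal fibroblasts, Hoxc4 fell by 0.99 ± 0.15 on the log2 scale (SE; adjusted p = 0.0014 by limma), which is a 1.99-fold lower level. Against inflamed fibroblasts it fell by 1.17 ± 0.15 (adjusted p = 0.00073 by limma), a 2.25-fold lower level. Both comparisons share the tumour-associated arrays and are not independent. Between inflamed and normal fibroblasts the difference was 0.18 ± 0.15 with a 95% interval from -0.15 to 0.50. The two-sided exact permutation test of single values gave p = 0.0286 for each comparison with the tumour-associated group, the smallest that 70 arrangements of 4 against 4 arrays can give, and p = 0.2 for inflamed against normal. With the spike control level as a covariate, the difference from inflamed fibroblasts was -1.07 and was no longer called (adjusted p = 0.065 by limma). The spike level was lowest on the inflamed arrays, so this fit cannot fully part it from that group. Over the 21 alternatives, the adjusted p of this difference ran between 0.00029 and 0.065 by limma. The difference from normal fibroblasts was called under all 21 alternatives. Without normal array 4 the difference from normal fibroblasts was -0.99, and without tumour-associated array 4 it was -0.92, both called.

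The background of these calls was wide. Tumour-associated fibroblasts differed from normal ones in 9.63% of all genes (4.85% higher and 4.78% lower) and from inflamed ones in 6.71% (3.67% higher and 3.04% lower). A count of 1 among 33 Hox genes is no larger a share than these. The count against normal fibroblasts was 2 without normal array 1, which added Hoxb9, and 3 without tumour-associated array 4, which added Hoxb2 and Hoxb9. Against inflamed fibroblasts it was 2 without tumour-associated array 2, which added Hoxb3, or array 4, which added Hoxa5. Over the Hox genes the median log2 difference was -0.04 against normal and -0.13 against inflamed fibroblasts, and over all genes it was 0.04 and 0.12. Over the 23 and 22 Hox genes above the dim limit in at least 1 of the groups compared, it was -0.28 and -0.34, while over all genes above the limit in this sense it was 0.02 and 0.06. This filter admits a gene through the group where it is high. Hoxb6 and Hoxd3 entered through the normal group alone, and Hoxb6 entered through the inflamed group alone. Hoxd13 entered the second comparison through the tumour-associated group alone. These medians therefore depend in part on the filter, and no conclusion is drawn from them. The 95% interval of the difference lay inside 2-fold in either direction for 18 of 33 Hox genes against normal fibroblasts and for 17 against inflamed ones, compared with 63.6% and 64.1% of all genes. In inflamed against normal fibroblasts it did so for 19 of 33, compared with 69.5%. For the rest, the interval reached past 2-fold in at least 1 direction. Hoxd8, a gene of the trunk, was closely bounded: its difference was -0.03 in tumour-associated against normal fibroblasts, with an interval from -0.40 to 0.35.

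**Figure D2:**
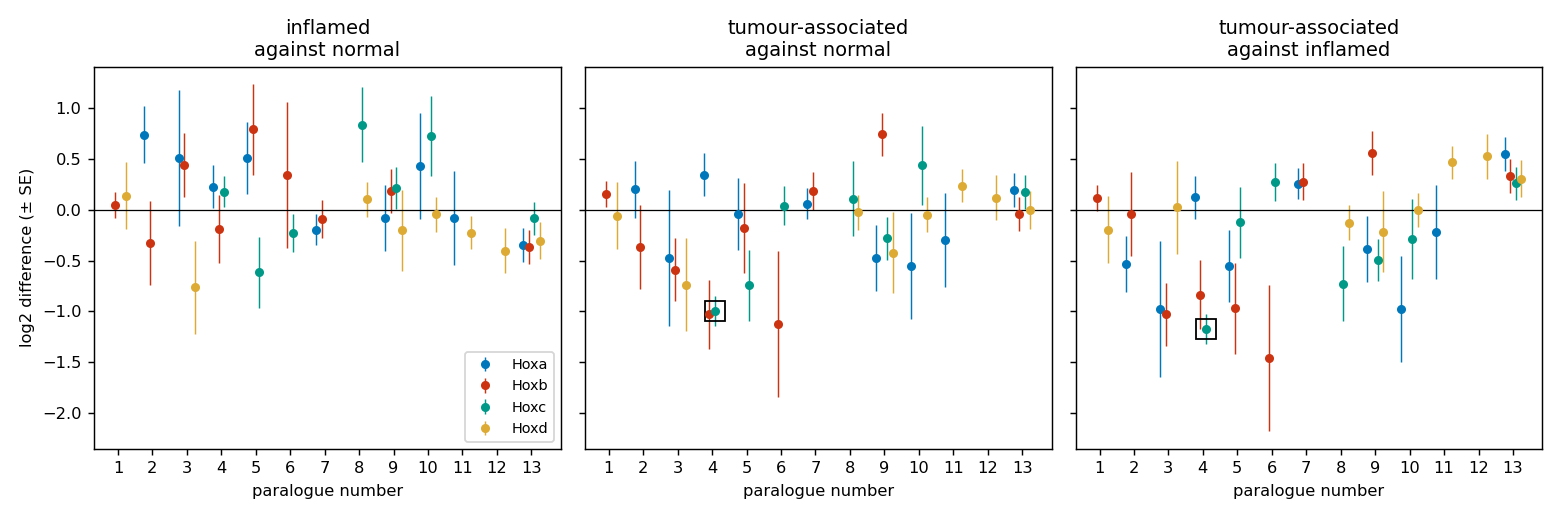
Log2 difference ± SE (vertical axis) of the 33 Hox genes by paralogue number (horizontal axis) and cluster (colour) in the 3 comparisons; a black square marks a gene called at an adjusted p under 0.05. Hoxc4 (green) is marked at -0.99 and -1.17 in the comparisons of tumour-associated fibroblasts, the red point inside its square is Hoxb4, which was not called, and no gene is marked for inflamed against normal fibroblasts.

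Hoxb4, the Hoxb paralogue of Hoxc4 and a gene studied in blood stem cells, had separate tumour-associated and normal values but did not pass the test. Its normal values were 8.98, 7.58, 8.10 and 7.58. Its inflamed values were 7.80, 7.10, 8.59 and 7.97. Its tumour-associated values were 7.04, 7.07, 6.94 and 7.08, all below every other array, and their SD of 0.06 was far smaller than the 0.66 and 0.61 of the normal and inflamed groups. The difference was -1.03 ± 0.33 against normal (adjusted p = 0.078 by limma) and -0.83 ± 0.33 against inflamed fibroblasts (adjusted p = 0.142). It was called under none of the 21 alternatives in either comparison. A second probe set of Hoxb4, with means of 6.14, 6.18 and 5.92 around the dim limit, differed by -0.21 and -0.26. Groups did not overlap for 3 Hox genes in tumour-associated against normal fibroblasts (Hoxb4, Hoxb9 and Hoxc4), against 13.8% of all genes. In tumour-associated against inflamed fibroblasts they did not overlap for 8 (Hoxa7, Hoxa13, Hoxb4, Hoxb9, Hoxc4, Hoxc8, Hoxc9 and Hoxd11), against 21.1%.

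Hoxb9, a gene of the thoracic region, had the opposite sign and lay at the threshold; it is described although the rule for named genes did not select it. Its normal values were 6.73, 6.56, 6.22 and 5.98, its inflamed values 6.20, 6.65, 6.74 and 6.61, and its tumour-associated values 7.55, 6.99, 7.12 and 6.77. The lowest tumour-associated value lay only just above the highest normal one. The difference from normal fibroblasts was 0.74 ± 0.21 (adjusted p = 0.051 by limma) and was called under 6 of 21 alternatives, with adjusted p from 0.027 to 0.127. The difference from inflamed fibroblasts was 0.56 ± 0.21 (adjusted p = 0.129).

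**Figure D3:**
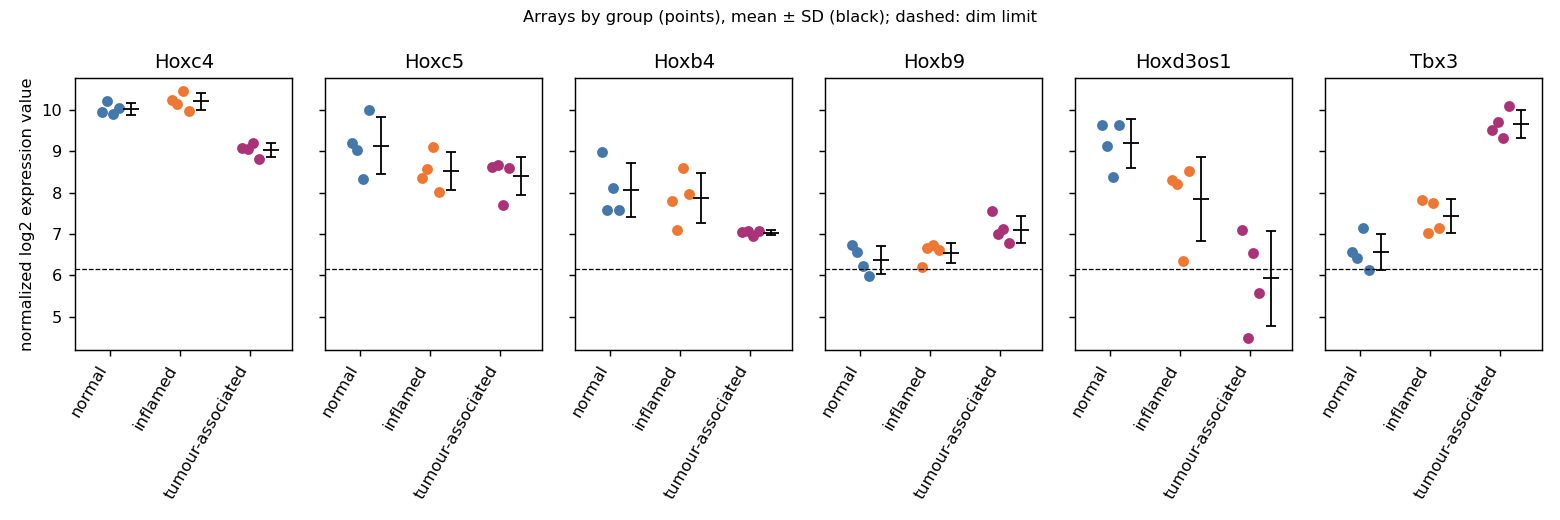
Normalized log2 value (vertical axis) of Hoxc4, Hoxc5, Hoxb4, Hoxb9, the antisense transcript Hoxd3os1 and the T-box gene Tbx3 on the 4 arrays of each group (coloured points), with the mean ± SD in black and the dim limit as a dashed line. The tumour-associated points lie apart from both other groups for Hoxc4, Hoxb4, Hoxb9 and Tbx3, and overlap them for Hoxc5.

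Within the Hoxc cluster, the differences of tumour-associated from normal fibroblasts were, in order of number, -0.99 for Hoxc4, -0.74 for Hoxc5, 0.04 for Hoxc6, 0.11 for Hoxc8, -0.28 for Hoxc9, 0.43 for Hoxc10 and 0.17 for Hoxc13. The differences from inflamed fibroblasts were -1.17, -0.12, 0.27, -0.73, -0.50, -0.29 and 0.26 in the same order of genes. Only Hoxc4 passed the test, in both comparisons. Hoxc5, the neighbour of Hoxc4, had 3 probe sets. The one with the highest mean gave normal values of 9.20, 9.02, 8.32 and 9.98, inflamed values of 8.35, 8.58, 9.11 and 8.02, and tumour-associated values of 8.61, 8.65, 7.71 and 8.59. These groups overlapped, and the difference from normal fibroblasts was -0.74 ± 0.35 (adjusted p = 0.233 by limma). In a limma fit over single probe sets, which called 7.65% of 45037 probe sets for tumour-associated against normal and 5.59% for tumour-associated against inflamed fibroblasts, the second probe set of Hoxc5 fell by 0.88 (adjusted p = 0.035) and by 0.85 (adjusted p = 0.0497). The third differed by -1.15 and -1.21 and was not called (adjusted p = 0.153 and 0.127). The 3 probe sets of Hoxc5 thus shared a sign against normal fibroblasts and differed in whether they passed. With the mean of all probe sets of a gene in place of the highest, Hoxc5 was called for tumour-associated against normal fibroblasts. The 3 probe sets of Hoxc6 differed by 0.04, 0.21 and 0.04 and none was called.

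In the Hoxb cluster, no gene passed the test. In order of number, the tumour-associated minus normal differences were 0.15 for Hoxb1, -0.37 for Hoxb2, -0.59 for Hoxb3, -1.03 for Hoxb4, -0.18 for Hoxb5, -1.12 for Hoxb6, 0.18 for Hoxb7, 0.74 for Hoxb9 and -0.04 for Hoxb13. Hoxb6 had the largest difference in size and also the widest spread: its normal values ran from 5.23 to 8.82, its inflamed values from 5.92 to 7.75 and its tumour-associated values from 4.51 to 6.45, and its adjusted p was 0.406. Hoxb3, a gene of the hindbrain and neck, differed by -1.03 ± 0.31 between tumour-associated and inflamed fibroblasts (adjusted p = 0.071). Its values were 5.88, 7.42, 6.06 and 6.62 on the tumour-associated and 7.52, 7.01, 8.08 and 7.47 on the inflamed arrays, so tumour-associated array 2 overlapped the inflamed group, and without that array Hoxb3 was called. A second probe set of Hoxb3 differed by -0.64 from inflamed fibroblasts and was not called (adjusted p = 0.279 by limma over probe sets). From normal fibroblasts that probe set differed by -0.03.

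The Hoxa cluster held no called gene either. Its tumour-associated minus normal differences ran from -0.55 for Hoxa10 to 0.34 for Hoxa4, and its inflamed minus normal differences from -0.35 for Hoxa13 to 0.73 for Hoxa2, a gene below the dim limit in every group. Hoxa9, whose product is known in blood cell development and patterning of the trunk, had means of 8.95 ± 0.81, 8.87 ± 0.23 and 8.48 ± 0.18 in normal, inflamed and tumour-associated fibroblasts. Its second probe set had means of 8.36, 8.61 and 7.56 in the same order. In tumour-associated fibroblasts it differed by -0.79 from normal and by -1.05 from inflamed ones and was not called. Hoxa7 had 7.38 ± 0.22, 7.19 ± 0.18 and 7.44 ± 0.10. Hoxa5, which is known in lung and rib development, had 6.99 ± 0.25, 7.49 ± 0.32 and 6.94 ± 0.86, and tumour-associated array 4, at 8.16, was the highest of all 12. In tumour-associated fibroblasts this probe set differed by -0.04 from normal and by -0.55 from inflamed ones. The second probe set of Hoxa5 differed by 0.51 and 0.01 in these comparisons, and neither was called. Hoxa3 spanned 3.92 over the 12 arrays with means of 8.11 ± 1.43, 8.61 ± 0.90 and 7.63 ± 0.80, and Hoxa10 spanned 3.42.

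In the Hoxd cluster, the tumour-associated minus normal differences ran from -0.74 for Hoxd3 to 0.23 for Hoxd11, and none passed the test. The inflamed minus normal differences ran from -0.76 for Hoxd3 to 0.14 for Hoxd1, and 6 of the 8 were negative. Hoxd3 had normal values of 6.61, 7.80, 6.62 and 5.23, inflamed values of 5.89, 5.74, 5.37 and 6.22 and tumour-associated values of 5.66, 5.44, 5.50 and 6.70, so the groups overlapped around the dim limit. The 2 probe sets shared by Hoxd3 and Hoxd4 differed by -0.63 and -0.82 between tumour-associated and normal fibroblasts in the fit over probe sets (adjusted p = 0.162 and 0.055), and by -0.27 and -0.46 between inflamed and normal ones. The 1 shared by Hoxb7 and Hoxb8 differed by -0.12 and 0.97.

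The median within-group SD, pooled over the groups, was 0.42 over the Hox genes and 0.33 over all genes. Hoxb6 had a pooled SD of 1.16 and Hoxa3 of 1.08, above 98.96% and 98.41% of all genes, whereas Hoxc4 had 0.17, above only 9.05%. Inflamed array 3 was the highest of its group for 17 of 33 Hox genes and for 33.7% of all genes. It was the lowest for 8 Hox genes and for 30.6% of all genes. Among the 22 Hox genes with a mean over 12 arrays above the dim limit, it was the highest of its group for 14. The share over all genes above the limit was not computed. On that array Hoxa3 was 9.92, Hoxa10 8.40, Hoxb5 8.70 and Hoxc10 10.56, each above the other 3 inflamed arrays, while Hoxd9 was 7.76 against 9.22 to 9.53 on those arrays. Inflamed array 2 was the lowest of its group for 14 Hox genes, against 26.6% of all genes. Tumour-associated array 4 was the highest for 15, against 45.1% of all genes. Without inflamed array 3, the median Hox difference between tumour-associated and inflamed fibroblasts was 0.00 in place of -0.13.

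**Figure D4:**
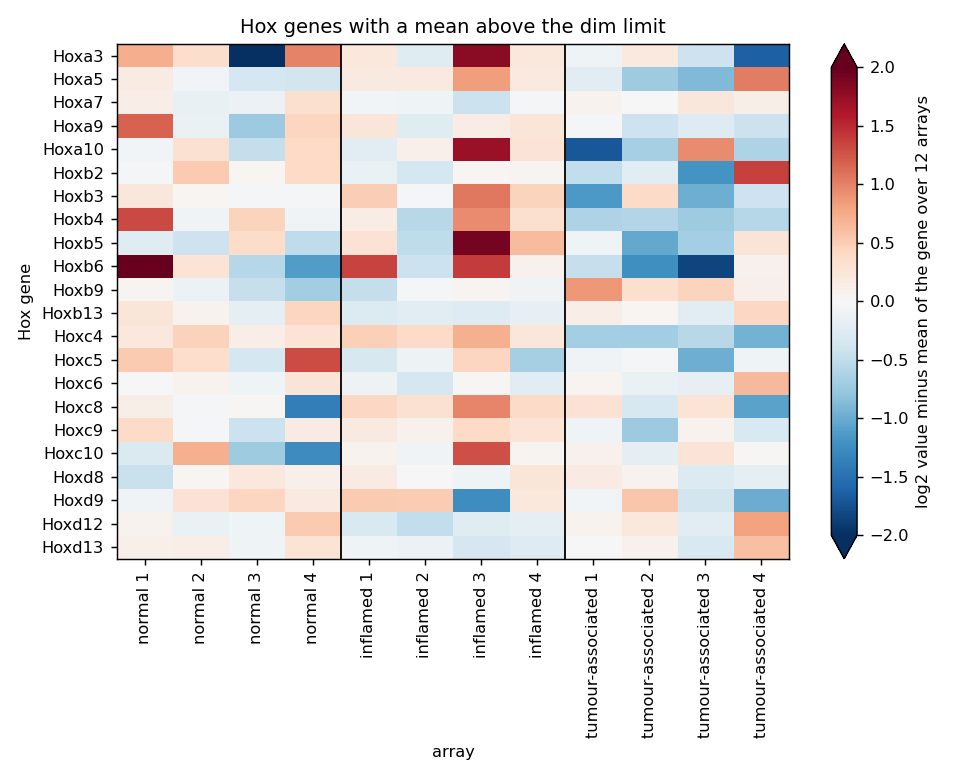
Log2 value minus the mean of the gene over 12 arrays (colour, from -2 to 2) for the 22 Hox genes with a mean above the dim limit (vertical axis) on each array (horizontal axis; black lines part the groups). Hoxc4 is below its mean on the 4 tumour-associated arrays and on no other, and inflamed array 3 is the highest of its group for 14 of the 22. Over all genes, dim ones included, that array is the highest of its group for 33.7%.

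Markers of other skin cells also moved between the groups, and their part in the Hox values was not tested. Over all genes, the test called 0.533% in inflamed against normal fibroblasts. It called 9.63% of all genes in tumour-associated against normal fibroblasts and 6.71% in tumour-associated against inflamed ones. Of 14 dermal papilla markers, genes of the mesenchyme inside the hair follicle base, 9 fell in tumour-associated against inflamed fibroblasts, 3 fell against normal fibroblasts and none passed between inflamed and normal ones; their summed level (log2) was 12.49 to 13.03 on normal, 13.87 to 15.34 on inflamed and 11.86 to 13.30 on tumour-associated arrays, and 12, 14 and 10 of them had means above the dim limit. None of the 9 calls against inflamed fibroblasts held with the spike control level as a covariate, and of the 3 against normal ones Sox2 was called in 3, Sox18 in 2 and Fgf7 in 8 of the 12 fits that left out 1 array. Of 6 pericyte and smooth muscle markers, all above the limit in every group, 2 fell in each comparison of tumour-associated fibroblasts and 1 fell in inflamed against normal ones; their summed level was 11.83 to 11.99, 10.59 to 11.10 and 9.85 to 10.63. Of 6 macrophage markers, 4 of them above the limit in every group, Csf1r fell in tumour-associated against normal fibroblasts, and the summed level was 11.83 to 12.09, 10.21 to 11.50 and 9.75 to 10.94. Of 10 markers of epidermal and outer root sheath keratinocytes, 2 rose in inflamed and 2 in tumour-associated against normal fibroblasts and 1 fell between the disease groups; the summed level was 10.23 to 10.77, 11.61 to 12.83 and 10.47 to 12.33, with 6, 9 and 9 above the limit. Among the pericyte and keratinocyte calls, Perp (inflamed against normal) and Cspg4 (tumour-associated against inflamed) were called in 4 and Abcc9 (tumour-associated against normal) in 5 of the 12 fits. No marker of hair shaft keratinocytes (9 measured, Hoxc13 among those listed), endothelium (6), skeletal muscle (6), Schwann cells (2) or melanocytes (4) passed in any comparison.

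Other transcripts of the Hox clusters and the genes flanking them were read for 9 of 22 listed. None passed between inflamed and normal fibroblasts. Between tumour-associated and normal fibroblasts 1 fell and 3 rose, where 4.78% and 4.85% of all genes did. Hoxd3os1, a long non-coding RNA on the strand opposite to Hoxd3 that overlaps its start in RefSeq, carries in the platform annotation the gene ID that RefSeq gives it; RefSeq lists the same name as a synonym of Gm38462, which has another ID. Hoxd3os1 had normal values of 9.63, 9.12, 8.38 and 9.63. Its inflamed values were 8.30, 8.20, 6.35 and 8.52, and its tumour-associated values 7.09, 4.50, 6.55 and 5.57. Every tumour-associated value lay below every normal one, while inflamed array 3 lay within the tumour-associated range. Hoxd3os1 fell by 3.26 ± 0.59 in tumour-associated against normal fibroblasts (adjusted p = 0.0044 by limma) and was called under all 21 alternatives, with values from -3.65 to -1.70. The smallest came from averaging its probe sets, since its other probe set, with means of 7.87, 7.13 and 7.73, differed by -0.14 and was not called (adjusted p = 0.899 over probe sets). The sources used here do not say which strand each probe set reads, so reads of Hoxd3 and of its antisense transcript cannot be told apart from them.

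Among the flanking genes, 3 rose in tumour-associated fibroblasts. Beside Hoxd, Mtx2, a mitochondrial outer membrane protein, rose by 0.87 ± 0.17 (adjusted p = 0.0072 by limma), from 9.03, 8.86, 9.02 and 8.33 on normal to 9.64, 9.84, 9.61 and 9.62 on tumour-associated arrays. Lnpk, a protein of endoplasmic reticulum junctions, rose by 1.29 ± 0.26 (adjusted p = 0.0092), but its other 2 probe sets differed by 0.19 and -0.18 and were not called. Beside Hoxa, Skap2, an adaptor protein of immune cell adhesion, rose by 1.89 ± 0.41 against normal (adjusted p = 0.012) and by 2.08 ± 0.41 against inflamed fibroblasts (adjusted p = 0.011); its other probe sets differed from normal by 1.63 and 0.25 and were not called. The difference of Skap2 from inflamed fibroblasts did not hold with the spike control level as a covariate. Skap1, beside Hoxb, differed by 0.10, and the homeobox genes Evx1 and Evx2, at the high-numbered ends of Hoxa and Hoxd, by 0.10 and 0.06; none of them was called. Hoxb5os and Hoxa11os, antisense transcripts of Hoxb and Hoxa, differed from normal by -0.08 and -0.32 and were not called.

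Of a list of Hox cofactors, which bind DNA together with Hox proteins, and of inhibitors of Hox or cofactor function, 10 of 11 genes were measured, and none passed against normal fibroblasts in either disease group. Pbxip1, which binds Pbx proteins and inhibits them, rose by 0.98 ± 0.18 in tumour-associated against inflamed fibroblasts (adjusted p = 0.0080 by limma). Over all genes, 3.67% were called higher there. Its second probe set rose by 0.80 (adjusted p = 0.012 by limma over probe sets). Against normal fibroblasts Pbxip1 differed by 0.56 ± 0.18 and was not called (adjusted p = 0.081 by limma). The second probe set rose by 0.66 against normal fibroblasts and was called (adjusted p = 0.022 by limma over probe sets). The call of Pbxip1 against inflamed fibroblasts did not hold with the spike control level as a covariate. The Pbx and Meis genes did not pass in any comparison.

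Polycomb and trithorax proteins keep Hox genes silent or active through cell division. Of 26 measured of 28 listed, 2 rose and 2 fell in tumour-associated against normal fibroblasts, where 4.85% and 4.78% of all genes did. In that comparison the median of the list was -0.08 against 0.04 over all genes. None passed in the other comparisons. The genes that follow are given for tumour-associated against normal fibroblasts. Ezh1, a histone methyltransferase of Polycomb repressive complex 2, fell by 1.25 ± 0.31 (adjusted p = 0.027), from 9.96, 9.42, 8.86 and 8.76 to 8.33, 8.11, 8.39 and 7.17. Its other 3 probe sets differed by -0.47, -0.36 and -1.33 and were not called. Ring1, a ubiquitin ligase of Polycomb repressive complex 1, fell by 1.07 ± 0.24 (adjusted p = 0.016). Rnf2, its close relative, rose by 1.19 ± 0.30 (adjusted p = 0.028). A second probe set of Rnf2 rose by 0.64 (adjusted p = 0.032 over probe sets), and the remaining 3 differed by -0.42, -0.16 and -0.14. Pcgf6, another subunit of complex 1, rose by 0.91 ± 0.25 (adjusted p = 0.040). These calls were not equally stable in the 12 fits that left out 1 array: Ring1 was called in 11 (lost without normal array 2), Ezh1 in 10 (lost without normal array 1 or 2), Rnf2 in 7 and Pcgf6 in 3.

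The retinoic acid pathway is among the classical inputs to Hox expression. Of 17 measured of 19 listed, 3 rose and 1 fell in tumour-associated against normal fibroblasts, where 4.85% and 4.78% of all genes did. Against inflamed fibroblasts 3 rose, where 3.67% of all genes did. None passed between inflamed and normal fibroblasts. The list medians were -0.01, -0.07 and -0.02 in this order of comparisons. Rdh10, which oxidizes retinol to retinaldehyde, had values of 7.65, 7.83, 8.49 and 8.34 on normal, 8.64, 9.16, 9.15 and 8.74 on inflamed and 10.32, 10.09, 11.27 and 9.69 on tumour-associated arrays, which do not overlap. It rose by 2.26 ± 0.31 against normal (adjusted p = 0.00079 by limma) and by 1.42 ± 0.31 against inflamed fibroblasts (adjusted p = 0.019). A second probe set of Rdh10 differed by 1.19 and 0.76 and was called only against normal fibroblasts (adjusted p = 0.041 and 0.167 by limma over probe sets). Aldh1a1, which oxidizes retinaldehyde to retinoic acid, went the other way: its values were 10.48, 9.81, 10.48 and 10.27 on normal, 8.71, 8.58, 7.56 and 9.14 on inflamed and 5.23, 7.69, 8.21 and 5.42 on tumour-associated arrays. It fell by 3.62 ± 0.61 against normal fibroblasts (adjusted p = 0.0029). Stra6, a retinol transporter, rose by 1.59 ± 0.30 and 2.03 ± 0.30 against normal and inflamed fibroblasts (adjusted p = 0.0055 and 0.0018). Crabp1, a retinoic acid binding protein, rose by 1.66 ± 0.36 against normal fibroblasts (adjusted p = 0.012). Cyp26a1, which degrades retinoic acid, rose by 1.19 ± 0.30 against inflamed fibroblasts (adjusted p = 0.033), with means of 5.04 and 6.23 around the dim limit, and was called in 7 of 12 fits that left out 1 array. Rdh10 against inflamed fibroblasts was called in 10 of them (lost without inflamed array 1 or 4), and the other calls of this list in all 12. With the spike control level as a covariate, none of the 3 calls against inflamed fibroblasts held, while all 4 against normal fibroblasts did.

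Among 29 measured of 32 other homeobox and T-box genes that pattern mesenchyme, 6 passed the test in at least 1 comparison, a share not computed over all genes. In tumour-associated against normal fibroblasts 3 rose and 2 fell, where 4.85% and 4.78% of all genes did. Against inflamed fibroblasts 1 rose and 2 fell, where 3.67% and 3.04% of all genes did. None passed between inflamed and normal fibroblasts. The list medians were 0.12, 0.19 and -0.14 in this order of comparisons. Tbx3, a T-box repressor known for limb and mammary patterning, had values of 6.56, 6.42, 7.14 and 6.12 on normal, 7.82, 7.03, 7.74 and 7.14 on inflamed and 9.50, 9.71, 9.31 and 10.10 on tumour-associated arrays. It rose by 3.09 ± 0.26 against normal (adjusted p = 2.5e-05) and by 2.22 ± 0.26 against inflamed fibroblasts (adjusted p = 0.00046). Of its other 4 probe sets, 3 differed from normal by 2.67 to 4.06 and 1 by -0.15. Irx3, an Iroquois homeobox gene, fell by 1.50 ± 0.22 and 0.96 ± 0.22 in these comparisons (adjusted p = 0.0011 and 0.022), and its neighbour Irx5 fell by 1.49 ± 0.39 against normal fibroblasts (adjusted p = 0.032). Alx4, known in skull and hair follicle mesenchyme, fell by 2.76 ± 0.57 against inflamed fibroblasts (adjusted p = 0.014), where inflamed array 3 reached 12.32 and the other 3 inflamed arrays lay between 9.79 and 9.90. Prrx2, a mesenchymal homeobox gene, rose by 1.14 ± 0.30 and Dlx1 by 0.53 ± 0.15 against normal fibroblasts (adjusted p = 0.035 and 0.039 by limma). Dlx1 lay below the dim limit in every group, with means of 5.06, 5.10 and 5.59 in normal, inflamed and tumour-associated fibroblasts. With 1 array left out, Tbx3 in both comparisons, Irx3 against normal and Alx4 were called in all 12 fits, Irx3 against inflamed fibroblasts in 9 (lost without inflamed array 1, 2 or 4), Irx5 in 7, Prrx2 in 4 and Dlx1 in 2. With the spike control level as a covariate, Alx4, Prrx2 and the difference of Irx3 from inflamed fibroblasts were not called.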

How the data were processed

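RNA of sorted fibroblasts was amplified once, labelled with biotin and hybridised to Affymetrix arrays, 1 per sample (12 arrays, 3 groups of 4). The deposited values are on a log2 scale, 1 per probe set, between 2.08 and 14.96. Per the submitters' processing notes limma was used, with no version given; how the scans were summarized and normalized is not given in the sources used here. Of 45101 probe sets, 64 were controls, and 34945 of the others had 1 gene symbol, 932 several and 9160 none in the platform annotation, which is dated and gave the names. The authors' log2 values were quantile-normalized here, since their quartiles differed between arrays, and 1 probe set per gene was kept.

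Groups came from the labels' treatment field. A linear model of 3 group means over all 12 arrays was fitted to 18193 genes with limma 3.58.1 in R 4.3.3 (lmFit, eBayes; two-sided; Benjamini-Hochberg adjustment over all genes; calls at an adjusted p under 0.05). A difference is the first group minus the second. The dim limit was the lowest 40% of probe-set means, because only 78 chemosensory probe sets were there and the rule asked for 100. Hox genes were given with every array where called, or where the difference was at least 1 with groups that do not overlap; called genes of the context lists were to be named up to the 3 smallest adjusted p, and the remaining called genes were named because so few passed. The Hox genes and all lists were chosen with earlier results of these data known. Deviations of arrays with the same replicate number from their group means correlated between -0.093 and 0.178, and the numbers were not taken to pair samples. The highest, 0.162 and 0.178, were those of arrays 3 and 4 in normal and tumour-associated fibroblasts. Spike means took the same order by number in these groups. They were 10.28, 10.25, 9.28 and 12.15 on normal arrays and 11.02, 10.65, 9.87 and 12.37 on tumour-associated arrays. What this order reflects was not tested. The fit was tested on simulated data. Alternatives covered normalization, probe set choice, dim genes, covariates, weights and leaving out each array. Precision is limited by there being 4 arrays per group.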

Additional observations from a re-analysis of the deposited data

Results flagged for a closer look

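Single arrays far from the other 3 of their group were looked for with Dixon's gap test at its 95% critical value. Of 168 sets of 4 arrays examined, 19 held one, 13 of them among the 99 sets of Hox genes. For independent, normally distributed values, chance gives about 1 in 20 sets. The share over all genes was not computed. Inflamed array 3 was the highest of its group for 33.7% of all genes, and tumour-associated array 4 for 45.1%. Whether the counts are particular to the Hox genes therefore cannot be said. Inflamed array 3 was the one apart in 8 of the 19: high for Hoxa5 at 7.976, Hoxa11 at 7.643, Hoxc8 at 10.94, Hoxc10 at 10.56, Hoxb5os at 8.086 and Alx4 at 12.32, and low for Hoxa7 at 6.912 and Hoxd3os1 at 6.347. Elsewhere in the inflamed group, array 1 was low for Hoxa4 at 4.589 and array 2 for Hoxd11 at 4.236, both below the dim limit.

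Among the normal arrays, array 4 was low for Hoxc8 at 8.592 and for Irx3 at 7.701, and array 3 was high for Hoxd1 at 4.582. Among the tumour-associated arrays, array 1 was low for Hoxd10 at 3.701 and high for Hoxa11os at 3.588. Array 2 was high for Hoxa4 at 5.637 and for Mtx2 at 9.837. Array 3 was low for Hoxc5 at 7.707, and array 4 was high for Hoxb7 at 5.62. No array of Hoxc4, Hoxb4 or Hoxb9 stood apart by this test.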

How the results depend on the processing

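Hoxc4 kept its sign under all 21 alternatives in each comparison. The count of called Hox genes was 0 for inflamed against normal fibroblasts under every alternative run. For tumour-associated against normal fibroblasts it was 1 as reported, 2 without dim genes, 3 with the mean of all probe sets, 3 with the spike level as a covariate, 3 with array quality weights, and 1 to 3 with single arrays left out. Against inflamed fibroblasts it was 1, with 0 under the spike covariate, 3 with weights and 1 to 2 when 1 array was left out. The spike level was lowest on the inflamed arrays, so fits with this covariate cannot fully part it from the inflamed group. Under the spike covariate the Hoxb9 difference between inflamed and normal fibroblasts turned to -0.18, and that of Hoxb4 ranged from -0.44 to 0.11 when 1 array was left out. The cause was not tested. The 51 calls in the context and marker lists kept their sign under every alternative that gave a value, a tally added after seeing the data; 47 were still called with no quantile normalization, 46 with a common median and 25 with the spike covariate.

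Over all genes, the 97 calls for inflamed against normal fibroblasts became 62 with no quantile normalization, 57 with a common median, 228 with the mean of probe sets, 841 with weights, 0 with the spike covariate by limma (2166 at an unadjusted p under 0.05), 0 at an adjusted p under 0.01 (2838 unadjusted) and 0 to 251 when 1 array was left out. The 1752 for tumour-associated against normal became 1089 with only the 8 arrays compared and 755 at 0.01. The 1221 against inflamed became 216 with the spike covariate, 2805 with weights, 398 at 0.01 and 580 to 1581 when 1 array was left out. With the replicate block the counts were 62, 1549 and 1040, and the Hox counts 0, 1 and 1. Each array was also matched by correlation to the 4 arrays of another group. In 10 of 24 matches the best correlation was with its own number. The Hox genes above the dim limit in normal fibroblasts went from 23 to 14 at the stricter limit; low signal limits what can be said of the 10 dim genes.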
